A study of Rattus norvegicus with 9 samples.

Results

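Molecular chaperones and protein folding enzymes were examined in the proximal colon of rats raised on 3 dietary proteins. The genes were taken by symbol: the heat shock protein family (Hsp), J proteins (Dnaj), subunits of the cytosolic chaperonin (Cct), protein disulfide isomerases (Pdia and P4hb), calreticulin (Calr), calnexin (Canx), cyclophilins (Ppia to Ppih) and FK506-binding proteins (Fkbp). Among the 8740 probe sets of the array that are not controls, 87 carried 1 gene symbol of this kind, and they stood for 45 of the 4736 genes so named. Of these, 77 probe sets of 40 genes reached a mean signal of 100 with at least 1 diet and were compared, within 5606 such probe sets of the whole array. By the known site of each protein, 24 genes act in the cytosol or nucleus, 16 in the endoplasmic reticulum (ER) and 5 in mitochondria. The number compared was 20, 15 and 5.

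Chaperones bind proteins that are not yet folded or have lost their fold. In the cytosol the small heat shock proteins hold such chains, Hsp70 and Hsp110 proteins work on them with J proteins as partners, and Hsp90 finishes many signalling proteins. In the ER lumen a second set, with Hspa5 (BiP), Hsp90b1 (Grp94), the lectins calnexin and calreticulin and the disulfide isomerases, folds proteins bound for secretion or membranes, which colonic epithelium makes in quantity. Heat shock factors raise transcription of the cytosolic set, whereas the unfolded protein response raises that of the ER set through an element in the promoters. Small heat shock proteins are also plentiful in muscle.

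The samples were 9 arrays of male Sprague Dawley rats that had lifelong AIN-93G diets whose protein was casein (CAS), an isolate of soy protein (SPI) or a hydrolysate of whey protein (WPH). All rats, the CAS-fed reference included, had received 2 doses of 15 mg/kg of azoxymethane (AOM), which induces colon tumors, from 90 days of age, and no group without AOM was measured. Proximal colon free of tumors, mucosa together with smooth muscle, was collected 40 weeks later. For each diet the RNA of 7 rats went into 1 pool, and 3 labelled cRNA targets were made from it, so that n = 3 counts targets and each p-value compares pools with the spread of labelling and hybridization.

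Per array, 58.6 to 60.2% of probe sets reached a signal of 100, and the median signal was 149 to 165. The ratio of 3′ to 5′ signal of β-actin, a measure of RNA and target quality, was 1.83 to 1.89 with CAS, 2.14 to 2.36 with SPI and 2.54 to 3.51 with WPH, whereas that of GAPDH overlapped between the diets. The tissue carried markers of epithelium and of smooth muscle, in different amounts. The summed signal of 11 epithelial markers was 54820 to 58619 with CAS, 30664 to 32407 with SPI and 10593 to 12092 with WPH, and all 11 were lower in WPH-fed than in CAS-fed rats. That of 8 smooth muscle markers was 102728 to 107000, 148169 to 151074 and 198706 to 227284, with all 8 higher in both WPH- and SPI-fed rats. Of the markers of other cells, 7 of 7 for neurons and glia, 7 of 9 for fibroblasts, 8 of 10 for leukocytes and 3 of 4 for adipocytes were higher with WPH. The adipocyte marker Plin1 and the endothelial marker Kdr stayed under 100 on all arrays. In RNA of whole tissue, fewer cells of a type and less RNA per cell cannot be told apart, and the part of these marker differences in the chaperone results was not tested.

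Some promoters of the ER genes carry a landmark that the arrays do not measure. RefSeq promoters of build GRCr8, from 250 bases before to 50 after the transcription start, were at hand for 40 of the 45 genes. The ER stress response element, searched on both strands as CCAAT followed by CCACG with 9 bases of any kind between them, was found in 4 of 14 ER genes (Hspa5, Hsp90b1, Calr and Canx), in 0 of 21 cytosolic genes and in 0 of 5 mitochondrial genes, against 22 of 33469 promoters in all (0.0657%). The heat shock element, searched on both strands as GAA, TTC and GAA with 2 bases of any kind between neighbours, was found in 2 of 21 cytosolic genes (Dnaja1 and Hsph1), in 2 of 5 mitochondrial genes (Hspd1 and Hspe1) and in 0 of 14 ER genes, against 267 of all promoters (0.798%). No promoter of these genes held both motifs, and a match describes the letters of a window only. The 4 ER promoters with a match and 2 with a heat shock element (Hsph1, cytosolic, and Hspe1, mitochondrial) are printed to show the matches. Promoters without a match are not printed. Each is given as the 250 bases before the start, 5′ to 3′ on the gene's strand, with the matches in capitals. A match to the other strand reads as its reverse complement, as in Calr, Hsph1 and the second match of Hsp90b1, and in Hspe1 a match on each strand overlaps to give 1 run.
Hspa5, chr3:38452766-38453015, plus strand: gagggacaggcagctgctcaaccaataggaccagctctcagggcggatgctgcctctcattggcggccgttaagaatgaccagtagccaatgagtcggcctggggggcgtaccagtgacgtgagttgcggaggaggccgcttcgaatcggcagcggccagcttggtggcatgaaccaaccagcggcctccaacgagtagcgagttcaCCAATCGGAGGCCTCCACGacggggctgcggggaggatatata
Hsp90b1, chr7:23012294-23012543, minus strand: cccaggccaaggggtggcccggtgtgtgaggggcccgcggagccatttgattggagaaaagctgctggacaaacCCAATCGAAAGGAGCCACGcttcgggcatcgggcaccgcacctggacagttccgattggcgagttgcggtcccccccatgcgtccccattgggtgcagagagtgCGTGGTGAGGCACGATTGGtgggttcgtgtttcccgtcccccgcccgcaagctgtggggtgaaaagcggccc
Calr, chr19:40213117-40213366, plus strand: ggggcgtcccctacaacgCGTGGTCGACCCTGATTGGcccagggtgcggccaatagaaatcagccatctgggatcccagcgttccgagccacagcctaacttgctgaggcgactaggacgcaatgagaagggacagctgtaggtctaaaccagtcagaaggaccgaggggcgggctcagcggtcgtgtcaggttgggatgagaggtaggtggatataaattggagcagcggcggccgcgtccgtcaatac
Canx, chr10:35157858-35158107, minus strand: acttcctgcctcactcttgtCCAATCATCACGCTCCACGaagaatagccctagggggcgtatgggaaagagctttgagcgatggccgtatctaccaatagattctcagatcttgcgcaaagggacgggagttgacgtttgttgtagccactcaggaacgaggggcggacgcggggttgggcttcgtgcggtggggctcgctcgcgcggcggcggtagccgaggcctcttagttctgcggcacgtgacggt
Hsph1, chr12:10427118-10427367, plus strand: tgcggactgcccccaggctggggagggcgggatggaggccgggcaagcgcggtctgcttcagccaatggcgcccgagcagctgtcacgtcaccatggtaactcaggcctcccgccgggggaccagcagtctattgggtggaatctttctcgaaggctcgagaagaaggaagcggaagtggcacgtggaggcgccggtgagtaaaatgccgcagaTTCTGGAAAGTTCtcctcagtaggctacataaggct
Hspe1, chr9:64084077-64084326, plus strand: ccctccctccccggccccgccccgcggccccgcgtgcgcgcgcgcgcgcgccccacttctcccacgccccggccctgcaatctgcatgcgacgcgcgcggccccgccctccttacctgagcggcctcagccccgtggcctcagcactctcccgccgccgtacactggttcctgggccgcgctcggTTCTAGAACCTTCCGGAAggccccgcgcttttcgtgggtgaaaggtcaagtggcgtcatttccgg
The element of Hspa5 began 43 bases before the start, those of Hsp90b1 176 and 72 bases, that of Calr 232 and that of Canx 230 bases before it. The heat shock element of Hsph1 began 36 bases before the start.

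The comparison with CAS asks which transcripts of non-tumor colon differ with the dietary protein. In WPH-fed rats, the cytosolic chaperone transcripts that passed the test were mostly higher, and all but 1 of the ER ones that passed were lower, than in CAS-fed rats. Of the 77 probe sets, 22 were higher and 17 lower at an adjusted p under 0.05 in limma, where 20.9% and 17.9% of all compared probe sets were called in these directions. In percent the members gave 28.6 higher and 22.1 lower, which lies near that background. Split by compartment the shares moved apart. Of 39 cytosolic probe sets, 20 were higher and 3 lower (51.3 and 7.69%), and of 29 ER probe sets, 1 was higher and 13 lower (3.45 and 44.8%). With the brightest probe set standing for each gene, 12 of 20 cytosolic genes were higher and 2 lower, and 0 of 15 ER genes were higher and 5 lower (3 and 8 at an unadjusted p under 0.05). The median log2 change over these genes was 0.57 for the cytosol and -0.23 for the ER, beside 0.060 over all compared probe sets. The 5 mitochondrial genes had 1 higher, 1 lower and a median of -0.074. At 2-fold or more, 6 cytosolic probe sets were higher and 2 ER probe sets lower, where 5.53% and 8.58% of all probe sets were.

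**Figure D1:**
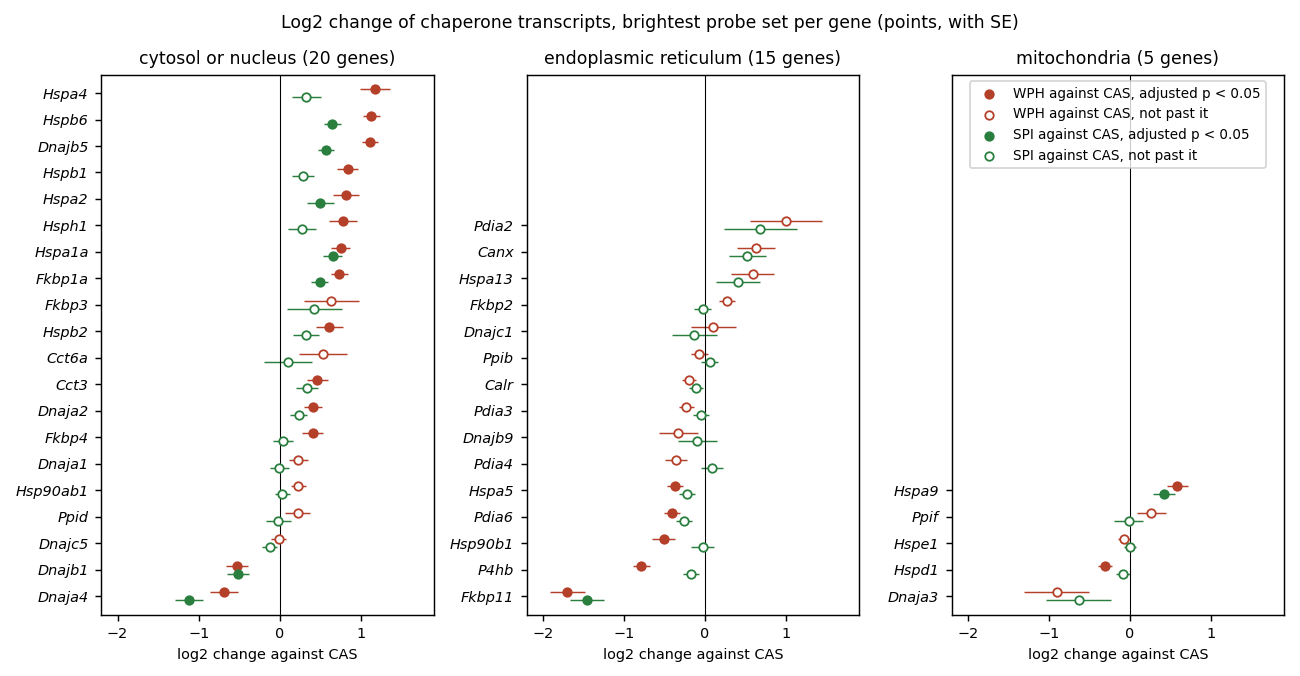
Log2 change of each of the 40 compared genes (rows) against CAS, by compartment, for WPH (red) and SPI (green), with the SE from limma (bars, 3 arrays per diet). Filled points passed an adjusted p of 0.05; 12 of 20 cytosolic genes were higher with WPH and none of the 15 ER genes was.

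The split was seen on every WPH array. Each gene's log2 signal was set against its CAS mean, and the median over the genes of a compartment was taken on each array. For the cytosol it was 0.51 ± 0.13 (SD, n = 3) with WPH, 0.23 ± 0.018 with SPI and -0.0094 ± 0.051 with CAS. For the ER it was -0.25 ± 0.089 with WPH, -0.028 ± 0.046 with SPI and 0.0076 ± 0.025 with CAS. The WPH arrays therefore lay below all CAS and SPI arrays for the ER and above them for the cytosol. The ER median minus the cytosolic median ran from -0.96 to -0.53 with WPH, from -0.33 to -0.23 with SPI and from -0.010 to 0.052 with CAS, and the ranges did not overlap. These medians describe the arrays and have no test.

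**Figure D2:**
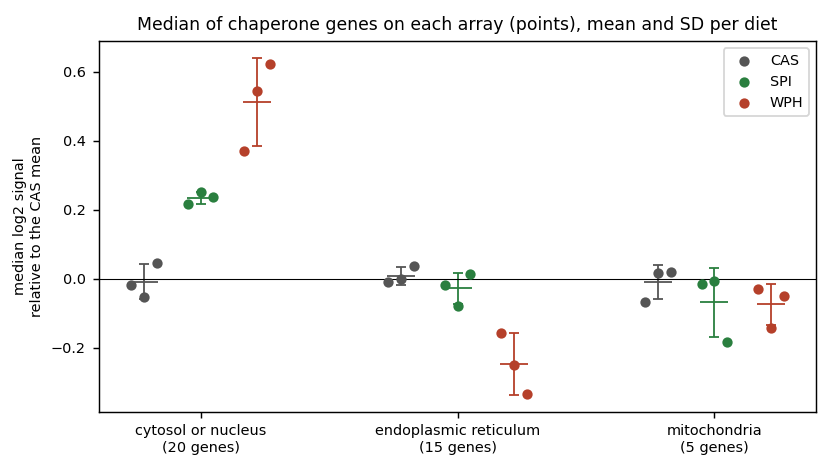
Median over genes of the log2 signal relative to the CAS mean (vertical axis) on each of the 9 arrays (points), with the mean and SD per diet (bars), for cytosolic, ER and mitochondrial chaperone genes. The WPH arrays lie at 0.37 to 0.62 for the cytosol and at -0.34 to -0.16 for the ER.

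No label names a wash batch. The recorded hybridization times put the arrays on 1 day in 3 groups, with times at most 10 minutes apart joined. These groups were taken as wash rounds, and the diets did not share them evenly. The first held CAS and WPH replicate 2. The second held 2 SPI arrays (replicates 1 and 2) with the rest of WPH, and the third held SPI replicate 3. With the round as a block, the WPH counts were 15 higher and 2 lower in the cytosol and 0 higher and 7 lower in the ER, where 13.0% and 13.3% of all probe sets were called. Within the first round, WPH replicate 2 against the CAS arrays gave 15 higher and 3 lower in the cytosol and 0 higher and 10 lower in the ER (13.3 and 15.4% of all). The ER count of 13 was 8 without CAS replicate 2. Without each of the 9 arrays in turn, 18 of the 22 higher and 10 of the 17 lower probe sets remained called every time. Of the 15 member probe sets called for SPI against CAS, only those of Hspb6 (D29960_at) and Dnaja4 (rc_AA799570_at) remained with the round as a block.

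Among the Hsp70 and Hsp90 proteins of the ER, the major ones were lower with WPH. Hspa5 encodes BiP, the Hsp70 of the ER lumen and a sensor of unfolded protein. The signal of Hspa5 (M14050_s_at) was 2847, 3093 and 2654 with CAS, 2405, 2403 and 2550.3 with SPI and 2499, 2014 and 2177 with WPH. All WPH arrays were below the lowest CAS array, and the change was a fall by 0.36 ± 0.10 on the log2 scale (SE, adjusted p = 0.013). With SPI the difference was -0.22 ± 0.10 (adjusted p = 0.146). A second probe set of Hspa5 (S63521_i_at) fell by 0.98 ± 0.26 with WPH (adjusted p = 0.0113). Without WPH replicate 2, the first had an adjusted p of 0.0578, and with the wash round as a block the second had one of 0.157.

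Hsp90b1 encodes Grp94, the ER form of Hsp90. Its brightest probe set (S69316_s_at) had signals of 2034, 2314 and 1971 with CAS, 2201, 1786 and 2219 with SPI and 1808, 1462 and 1216 with WPH. WPH was again below all CAS arrays but reached up to the lowest SPI array, and it fell by 0.51 ± 0.15 (adjusted p = 0.0162). Another probe set (AA685903_at) fell by 0.61 ± 0.17 (adjusted p = 0.0136), and the third (S69315_at) was at -0.17 ± 0.11 (adjusted p = 0.245). With SPI the brightest stood at -0.029 ± 0.15 against CAS (adjusted p = 0.917). The WPH call of the brightest was lost without CAS replicate 2 (adjusted p = 0.0598), without WPH replicate 3 (0.0629) and with the wash round as a block (0.128), and that of AA685903_at without CAS replicate 2 (0.0583), without WPH replicate 1 (0.0507) and with the block (0.194). Other compared Hsp70 and J proteins of the ER passed no test. With WPH, Hspa13 was at 0.59 ± 0.27, Dnajb9 (ERdj4) at -0.33 ± 0.24 and Dnajc1 at 0.10 ± 0.27 against CAS. Their highest signals on any array were 170.1, 339.7 and 175.8.

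Among the protein disulfide isomerases, which make and shuffle disulfide bonds, P4hb was lower on all 3 of its probe sets. It encodes the founding isomerase, which is also the beta subunit of the prolyl hydroxylase of collagen. Its signal (X02918_at) was 5861, 5318 and 5956 with CAS, 4894, 5528 and 4790.4 with SPI and 2915, 3652 and 3412 with WPH. The highest WPH array was well below the lowest SPI and CAS arrays, and P4hb fell by 0.78 ± 0.10 with WPH (adjusted p = 9.34e-05), to a level 1.72-fold lower than with CAS. Its other probe sets fell too, M21476_s_at by 1.27 ± 0.19 and X02918_g_at by 0.55 ± 0.13. With SPI the 3 stood at -0.17 ± 0.10, -0.30 ± 0.19 and -0.11 ± 0.13, and none was called. The WPH calls of all 3 remained without any 1 array and with the wash round as a block.

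Pdia6, an isomerase that binds BiP, had signals of 2200.2, 2306 and 2426 with CAS, 1718, 2148 and 1940.5 with SPI and 1782, 1765 and 1686 with WPH (rc_AA892532_at). The WPH arrays lay close together below all CAS arrays, and Pdia6 fell by 0.40 ± 0.098 (adjusted p = 0.00641; 0.103 with the wash round as a block). Pdia3 (ERp57) works with calnexin and calreticulin on glycoproteins, and its brightest probe set (X12355_s_at) read 2419, 2729.6 and 2530.4 with CAS, 2319.5, 2539 and 2558 with SPI and 2410.5, 2145 and 2004 with WPH. It was at -0.23 ± 0.096 with WPH (adjusted p = 0.0811), past no threshold although the WPH and CAS arrays did not overlap. The dimmer probe set of Pdia3 (rc_AA892637_at) was at 0.097 ± 0.24 with WPH (adjusted p = 0.782). Pdia4 (ERp72, M86870_at) read 320.2, 289 and 308 with CAS, 342, 289.6 and 342 with SPI and 218, 257 and 242 with WPH. Its WPH arrays were the lowest 3 of 9, at -0.36 ± 0.14 against CAS (adjusted p = 0.0564). Pdia2, an isomerase best known from pancreas, had all CAS signals under 100, and its WPH mean was at least 1.2-fold higher without passing the test (adjusted p = 0.103).

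**Figure D3:**
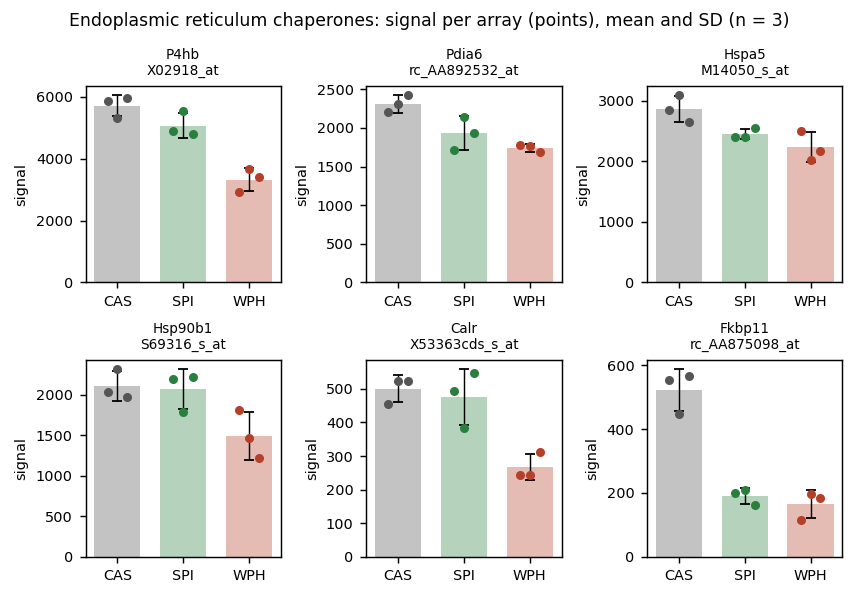
Signals of 6 ER chaperone genes (vertical axes, linear, scaled by the authors to an average of 500 per array) on the 3 arrays of each diet (points), with the mean (bar) and SD. In P4hb, Calr and Hsp90b1 the WPH mean is the lowest and SPI is near CAS, whereas in Fkbp11 both SPI and WPH lie far below CAS. The Calr panel shows X53363cds_s_at, its dimmest probe set and the one with the largest fall. The brightest, D78308_at, was at -0.19 ± 0.086 with WPH (limma adjusted p = 0.101).

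The lectin chaperones, which hold glycoproteins during folding, gave unequal readings between probe sets. Calreticulin (Calr), soluble in the lumen, read 4017, 4460.2 and 4086 with CAS, 3518, 4016 and 4099 with SPI and 3751, 3521 and 3703 with WPH on its brightest probe set (D78308_at). This was at -0.19 ± 0.086 with WPH (adjusted p = 0.101). A second (X53363cds_s_at) read 454, 523 and 524 with CAS, 493, 384 and 548 with SPI and 244, 244 and 311 with WPH. There all WPH arrays were below all others, and Calr fell by 0.92 ± 0.16 (adjusted p = 0.00082), with -0.089 ± 0.16 for SPI (adjusted p = 0.755). The third (D78308_g_at) fell by 0.44 ± 0.14 with WPH (adjusted p = 0.0273). Its call was lost without CAS replicate 2 (adjusted p = 0.0995), CAS replicate 3 (0.0672), WPH replicate 2 (0.0874) or WPH replicate 3 (0.0685), and with the wash round as a block (0.105).

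Calnexin (Canx), anchored in the ER membrane, was the only gene with compared probe sets called in opposite directions. Its probe set rc_AI010725_at read 1406, 2052 and 1548 with CAS, 1913, 1999 and 2134 with SPI and 2579.7, 2431 and 2245 with WPH, and rose by 0.55 ± 0.13 with WPH (adjusted p = 0.00587). In contrast, rc_AA893328_at read 308, 333 and 251 with CAS, 294, 251 and 370.1 with SPI and 199, 168 and 199 with WPH, and fell by 0.65 ± 0.18 (adjusted p = 0.0136). On both, the WPH arrays lay outside the range of the CAS arrays. L18889_at fell by 0.54 ± 0.19 (adjusted p = 0.0432), the brightest (rc_AI010725_g_at) was at 0.63 ± 0.23 (adjusted p = 0.0514) and rc_AI235707_g_at at 0.048 ± 0.24 (adjusted p = 0.897). The call of rc_AA893328_at was lost without CAS replicate 2 (adjusted p = 0.0542) or WPH replicate 2 (0.0506), and that of L18889_at when any 1 of 7 arrays was left out (0.0501 to 0.155). With the wash round as a block rc_AI010725_at had an adjusted p of 0.0768 and L18889_at one of 0.146. No direction is given for Canx.

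Among the prolyl isomerases of the ER was the largest log2 change of the compared ER genes. Fkbp11, a membrane-anchored FK506-binding protein typical of secretory cells, read 554, 448 and 565 with CAS, 199.6, 209 and 164 with SPI and 115, 196 and 183 with WPH (rc_AA875098_at). The SPI and WPH arrays reached at most 208.8, and the CAS arrays were at 448.2 or more. Fkbp11 fell by 1.70 ± 0.21 with WPH (adjusted p = 7.15e-05), 3.17-fold, and by 1.45 ± 0.21 with SPI (adjusted p = 0.00058). Cyclophilin B (Ppib), a collagen-folding isomerase, read 1989, 1857 and 2062 with CAS, 1941, 2029.5 and 2174 with SPI and 1753, 2177 and 1729.9 with WPH on its brightest probe set (rc_AA818487_s_at). The diets overlapped there, at -0.069 ± 0.11 for WPH (adjusted p = 0.647), and the second probe set of Ppib was at -0.30 ± 0.12 (adjusted p = 0.0679). Fkbp2 had values of 0.27 ± 0.10 and 0.26 ± 0.11 for WPH on its 2 probe sets, with adjusted p of 0.0592 and 0.0933. With the wash round as a block the WPH call of Fkbp11 remained (adjusted p = 0.00671), whereas the SPI difference was -0.92 and was not called (adjusted p = 0.227).

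In the cytosol, all 3 small heat shock protein genes were higher with WPH. Hspb6 (Hsp20), an actin-associated small heat shock protein of muscle, read 1369.5, 1500.5 and 1709 with CAS, 2413, 2531 and 2214 with SPI and 3276, 3595 and 3107 with WPH (D29960_at). The diets were ordered CAS, SPI, WPH with no overlap. Hspb6 rose by 1.13 ± 0.10 with WPH (adjusted p = 7.2e-06), 2.18-fold, and by 0.65 ± 0.10 with SPI (adjusted p = 0.00117), and SPI was below WPH by 0.48 ± 0.10 (adjusted p = 0.00797). Its second probe set (rc_AI103838_g_at) rose by 0.93 ± 0.093 with WPH and by 0.46 ± 0.093 with SPI (adjusted p = 1.35e-05 and 0.00482).

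Hspb1 (Hsp27) binds actin and partly unfolded proteins in many cells. On the brightest of its 4 probe sets (rc_AI176658_s_at) the signals were 3635, 3927 and 3897 with CAS, 4146, 5903 and 4114 with SPI and 6954, 7294 and 6254 with WPH. All WPH arrays were above all others, and Hspb1 rose by 0.84 ± 0.13 with WPH (adjusted p = 0.000371). On M86389cds_s_at it rose by 1.17 ± 0.16 and on rc_AA998683_g_at by 0.87 ± 0.11 (adjusted p = 0.000131 and 8.7e-05). The fourth, rc_AA998683_at, was at -0.33 ± 0.14 (adjusted p = 0.0946), on the other side of 0 although it is named for the same clone as rc_AA998683_g_at. With SPI only M86389cds_s_at was called, at 0.56 ± 0.16 (adjusted p = 0.0272), and that call was lost without CAS replicate 2 (0.0866) or SPI replicate 2 (0.0872). Hspb2, a muscle small heat shock protein, read 33.7, 27.4 and 33.8 with CAS, 138, 165 and 177 with SPI and 104, 147 and 197 with WPH on U75899mRNA_at. Its CAS signals were all under 100, so the WPH mean was at least 1.49-fold and the SPI mean at least 1.6-fold higher (adjusted p = 0.000131 and 0.000237). The brighter U75899mRNA_g_at rose by 0.61 ± 0.16 with WPH (adjusted p = 0.012, or 0.137 with the wash round as a block). With SPI the brighter probe set was at 0.32 ± 0.16 and not called (adjusted p = 0.198), and its SPI and CAS arrays overlapped.

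The Hsp70 family and its exchange factors were higher or passed no test. Hspa4 (Apg-2), an Hsp110-like exchange factor for Hsp70, read 558, 539.7 and 613 with CAS, 716, 932 and 548 with SPI and 1233, 1122 and 1539 with WPH (AF077354_g_at). The WPH arrays were all at 1122 or more, above all others. Hspa4 rose there by 1.18 ± 0.18 (adjusted p = 0.000353), 2.28-fold, where SPI was at 0.33 ± 0.18 (adjusted p = 0.242). Its dimmer probe set (AF077354_at) was at 0.68 ± 0.25 with WPH and not called (adjusted p = 0.0552). Hsph1 (Hsp105), the main Hsp110, with a heat shock element in its promoter, read 699.8, 536 and 653 with CAS, 680.2, 818 and 770.5 with SPI and 815, 1183 and 1297 with WPH (rc_AI236601_at). It rose by 0.78 ± 0.17 with WPH (adjusted p = 0.00375), and SPI was at 0.27 ± 0.17 (adjusted p = 0.32). Hspa2, an Hsp70 best known from testis, rose by 0.81 ± 0.16 with WPH (adjusted p = 0.00192). With SPI it was called at 0.50 ± 0.16 (adjusted p = 0.0466), a call lost when any 1 of 6 arrays was left out (0.0560 to 0.152).

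Hspa1a, the stress-inducible Hsp70, read 1002, 1229.8 and 1169 with CAS, 1745, 1583 and 2027 with SPI and 2000.4, 1956 and 1759 with WPH on its own probe set (Z75029_s_at). Both SPI and WPH arrays were above all CAS arrays, and it rose by 0.75 ± 0.12 with WPH and by 0.65 ± 0.12 with SPI (adjusted p = 0.000388 and 0.00226). Hspa1a and Hspa1b are near-identical copies, and 3 compared probe sets that list both symbols read differently. For WPH they were at -0.17 ± 0.12 (L16764_s_at), -0.19 ± 0.25 (rc_AA818604_s_at) and 0.20 ± 0.16 (Z27118cds_s_at), and none was called. With SPI the last rose by 0.58 ± 0.16 (adjusted p = 0.0237). The Hspa1a reading is therefore uncertain as to the gene.

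Hsp90ab1 encodes the constitutive cytosolic Hsp90. Its brightest probe set (rc_AI236795_s_at) read 12007, 11746 and 12493 with CAS, 10724, 14359 and 12246 with SPI and 13879, 14501 and 14109.8 with WPH. The diets lay close together, at 0.23 ± 0.097 for WPH (adjusted p = 0.0844), and only 1 of the 4 probe sets was called, S45392_at, which rose by 0.31 ± 0.10 (adjusted p = 0.0315). That call was lost without CAS replicate 1 (adjusted p = 0.0834), CAS replicate 3 (0.129), WPH replicate 1 (0.116) or WPH replicate 2 (0.0511), and with the wash round as a block (0.295). Hsp90aa1, the inducible form, was compared only through 2 probe sets that also list a pseudogene, which rose by 0.77 ± 0.087 and 0.72 ± 0.24 with WPH (rc_AI176546_at and rc_AA944397_at, adjusted p = 3.3e-05 and 0.0339). Probe sets of several symbols were not counted among the members. Of 12 such probe sets compared with at least 1 chaperone symbol, 8 were higher and 0 lower with WPH (20.9 and 17.9% of all). With SPI 3 were higher and 0 lower (12.0 and 10.2%), and SPI against WPH had 0 and 1 (10.1 and 9.83%). The 8 all listed Ppia, Hspa8 or Hsp90aa1. With WPH, Hspa8 rose by 0.41 ± 0.091 (rc_AI234604_s_at, adjusted p = 0.00364) and 0.51 ± 0.18 (M11942_s_at, 0.0406), and Ppia by 0.24 to 0.71. Of these 2 genes, only rc_AA818858_s_at (Ppia) was called with SPI (0.45 ± 0.12, adjusted p = 0.0225).

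The J proteins, which hand substrates to Hsp70, moved in both directions. Dnajb5 read 339, 342 and 349 with CAS, 506, 502 and 523 with SPI and 746, 737 and 737 with WPH (rc_AA891542_at). The arrays of a diet differed by little and the diets were far apart, with a rise of 1.11 ± 0.099 for WPH (adjusted p = 5.04e-06), 2.15-fold, and of 0.57 ± 0.099 for SPI (adjusted p = 0.00165). Dnaja4 read 1736, 1575 and 1705 with CAS, 896, 926 and 549 with SPI and 987, 1077 and 1039 with WPH (rc_AA799570_at). All SPI and WPH arrays were below all CAS arrays, and Dnaja4 fell by 0.69 ± 0.17 with WPH (adjusted p = 0.00746) and by 1.12 ± 0.17 with SPI (adjusted p = 0.000838). Its dimmer probe set (AA848268_at) was at -0.18 ± 0.17 and -0.44 ± 0.17, and not called. Dnajb1 (Hsp40), the heat-inducible partner of Hsp70, read 1307, 1222 and 1321 with CAS, 759.8, 1116 and 856 with SPI and 913, 843 and 921 with WPH (rc_AA945704_at). Its CAS arrays were again the highest, and Dnajb1 fell by 0.52 ± 0.13 with WPH and by 0.51 ± 0.13 with SPI (adjusted p = 0.00864 and 0.0177). On rc_AA859648_at it fell by 0.56 ± 0.12 and 0.44 ± 0.12 (adjusted p = 0.0036 and 0.024).

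Both SPI calls of Dnajb1 were lost without CAS replicate 1 or SPI replicate 1 (adjusted p 0.0580 to 0.10), and that of rc_AA945704_at also without CAS replicate 3 (0.0611) or SPI replicate 3 (0.0618) and, for WPH, with the wash round as a block (0.0603). Dnaja1, a farnesylated J protein with a heat shock element after its start, read 2196, 1670.4 and 2099 with CAS, 1943, 1897 and 2056 with SPI and 2164, 2238 and 2563 with WPH (U53922_at). The diets overlapped, at 0.23 ± 0.12 for WPH (adjusted p = 0.144), and its second probe set was at 0.29 ± 0.11 (adjusted p = 0.052). Dnaja2 rose on 1 of 3 probe sets, rc_AI170685_at, by 0.41 ± 0.11 with WPH (adjusted p = 0.011; 0.0896 with the block). Dnajc5, the cysteine string protein of secretory vesicles, was at -0.011 ± 0.092 (adjusted p = 0.939).

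**Figure D4:**
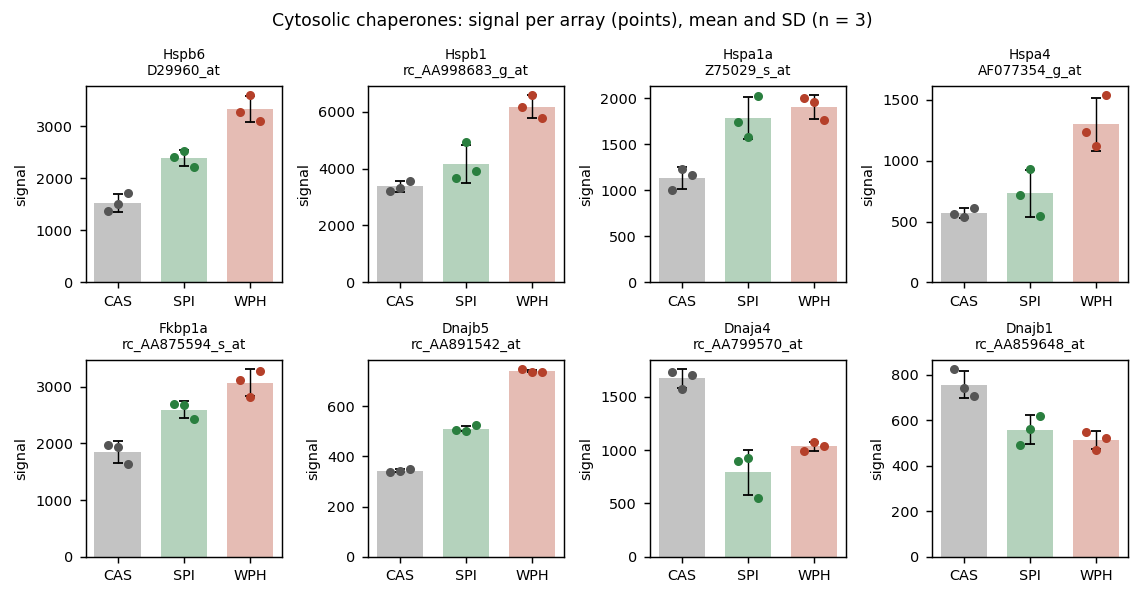
Signals of 8 cytosolic chaperone genes (vertical axes, linear, scaled by the authors to an average of 500 per array) on the 3 arrays of each diet (points), with the mean (bar) and SD. Hspb6 and Dnajb5 step up from CAS to SPI to WPH without overlap, whereas Dnaja4 and Dnajb1 are highest with CAS.

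Among the prolyl isomerases of the cytosol, Fkbp1a (FKBP12), which binds FK506 and calcium release channels, was higher on all 4 of its probe sets with WPH. The brightest (rc_AA875594_s_at) read 1971, 1946 and 1631 with CAS, 2689, 2670.2 and 2423 with SPI and 3124, 2821 and 3278 with WPH. It stepped up from CAS to SPI to WPH without overlap, and rose by 0.74 ± 0.10 with WPH and by 0.49 ± 0.10 with SPI (adjusted p = 0.000156 and 0.00516). The other 3 rose by 0.50 to 1.11 with WPH, and 2 of them were called with SPI. The WPH call of the weakest, D86641_at, was lost when any 1 of 6 arrays was left out (adjusted p 0.0515 to 0.135), and that of rc_AI176170_at with the wash round as a block (0.0603). Both further SPI calls were lost without CAS replicate 1 (0.152 for rc_AI176170_at and 0.0706 for rc_AI228738_s_at) or SPI replicate 3 (0.110 and 0.0607), and the former also when any 1 of 4 other arrays was left out (0.0562 to 0.0973).

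Fkbp4 (FKBP52), an Hsp90 partner in steroid receptor complexes, read 389.9, 366 and 434 with CAS, 404, 441 and 377 with SPI and 504, 576 and 492 with WPH on rc_AI231547_at. It rose there by 0.40 ± 0.12 with WPH (adjusted p = 0.0235), while its other probe sets were at -0.42 ± 0.21 and -0.10 ± 0.18 and not called. The call was lost without CAS replicate 1 (0.0653), CAS replicate 2 (0.0766) or WPH replicate 2 (0.0883). Of the chaperonin, which folds actin and tubulin, Cct3 rose by 0.46 ± 0.13 with WPH (adjusted p = 0.016) and Cct6a, near the detection limit, was at 0.53 ± 0.30 (adjusted p = 0.189). The Cct3 call was lost without CAS replicate 2 (0.0581), CAS replicate 3 (0.0601) or WPH replicate 3 (0.0637), and with the wash round as a block (0.144). Ppid and Fkbp3 were at 0.22 ± 0.15 and 0.64 ± 0.34 and were not called.

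The mitochondrial chaperones had 1 probe set called in each direction with WPH. Hspd1 (Hsp60), the chaperonin of the matrix, read 4972, 5156 and 5162 with CAS, 5046, 5076 and 4272 with SPI and 4285, 4153 and 3934 with WPH (X54793_at). WPH was below all CAS arrays, and Hspd1 fell by 0.31 ± 0.086 (adjusted p = 0.015; 0.0545 without WPH replicate 3 and 0.0922 with the wash round as a block), while its second probe set was at 0.088 ± 0.18. Hspe1 (Hsp10), its partner, which shares a promoter region with it in mammals, read 2836, 2867 and 2741 with CAS, 2920.5, 2672 and 2847 with SPI and 2758, 2550.5 and 2717 with WPH (rc_AI170613_at). These overlapped in all diets, at -0.074 ± 0.079 for WPH (adjusted p = 0.496). Its second probe set (rc_AI170613_g_at) was at 0.073 ± 0.11 with WPH (adjusted p = 0.623). With SPI that probe set was at 0.31 ± 0.11 and not called (adjusted p = 0.0555), although the SPI and CAS arrays did not overlap. Hspa9 (mortalin), the matrix Hsp70, read 962, 1420.3 and 1039 with CAS, 1449, 1561 and 1488 with SPI and 1653, 1609 and 1798 with WPH (S78556_at). All SPI and WPH arrays were above the CAS arrays, and Hspa9 rose by 0.58 ± 0.13 with WPH (adjusted p = 0.00488; 0.109 with the block) and by 0.41 ± 0.13 with SPI (adjusted p = 0.0479). The SPI call was lost when any 1 of 8 arrays was left out (0.0550 to 0.183). Its other probe sets, S75280_s_at at 0.41 ± 0.15 and rc_AA944973_at at 0.27 ± 0.32 with WPH, were not called, nor were Ppif (cyclophilin D) at 0.26 ± 0.18 and Dnaja3 at -0.91 ± 0.40.

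In SPI-fed rats the median cytosolic difference was smaller than in WPH-fed rats, and 1 ER probe set was called. Of 77 probe sets, 11 were higher and 4 lower than with CAS, where 12.0% and 10.2% of all compared probe sets were called. In the cytosol 10 of 39 were higher and 3 lower, in the ER 0 of 29 were higher and 1 lower (Fkbp11; 2 and 3 at an unadjusted p under 0.05), and in mitochondria 1 of 9 was higher. At 2-fold or more, 1 was higher and 2 were lower (2.39% and 3.35% of all). The median log2 change over genes was 0.28 for the cytosol, -0.050 for the ER and -0.017 for mitochondria, beside -0.012 over all compared probe sets. The higher probe sets were those of Hspb6 (both), Hspb2 (U75899mRNA_at only), Hspb1 (M86389cds_s_at only), Dnajb5, Hspa1a, Hspa2, Fkbp1a (3 of 4) and Hspa9 (S78556_at only). The lower ones were those of Dnaja4 (rc_AA799570_at only), Dnajb1 (both) and Fkbp11. With the wash round as a block, 2 members remained called (1.78 and 2.71% of all), Hspb6 (D29960_at, adjusted p = 0.0442) and Dnaja4 (adjusted p = 0.0481). The ER median was then 0.035. No wash round held both CAS and SPI arrays. The count of 11 was 7 without CAS replicate 1 or SPI replicate 3, and that of 4 was 2 without CAS replicate 1 or SPI replicate 1.

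The direct comparison of SPI with WPH split by compartment as well. It shares its WPH arrays with the WPH and CAS comparison and its SPI arrays with the SPI and CAS comparison. With SPI, 7 of 77 probe sets were higher and 7 lower than with WPH, where 10.1% and 9.83% of all were called. All 7 higher ones were of the ER (of 29) and all 7 lower ones of the cytosol (of 39), and 0 of 9 mitochondrial ones were called (3 at an unadjusted p under 0.05). None of the 14 reached 2-fold, as 4.50% of all probe sets did in the higher and 1.03% in the lower direction. The 7 of the ER were the 3 of P4hb, Calr (X53363cds_s_at), Canx (rc_AA893328_at), Hsp90b1 (S69316_s_at) and Pdia4. P4hb (X02918_at) was higher with SPI by 0.61 ± 0.10 (adjusted p = 0.00151) and Calr (X53363cds_s_at) by 0.83 ± 0.16 (adjusted p = 0.00412). The brightest probe set of Calr, D78308_at, was at 0.081 ± 0.086 and not called (adjusted p = 0.561). The 7 of the cytosol were 3 of Hspb1, both of Hspb6, Dnajb5 and Hspa4. Hspa4 (AF077354_g_at) was lower with SPI by 0.85 ± 0.18 (adjusted p = 0.00724) and Dnajb5 by 0.54 ± 0.099 (adjusted p = 0.00295). The dimmer probe set of Hspa4 was at -0.53 ± 0.25 and not called (adjusted p = 0.18).

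These counts depended on the wash round and on single arrays. With the round as a block, 1 ER probe set (P4hb, X02918_at, adjusted p = 0.00707) remained higher and 3 cytosolic ones (Dnajb5, Hspa4 and 1 of Hspb6) lower, with 6.28 and 3.71% of all probe sets called. Within the second round, SPI replicates 1 and 2 against WPH replicates 1 and 3, 1 ER probe set was called higher and 0 lower (3.94 and 1.68% of all), and at an unadjusted p under 0.05 the members had 4 higher and 7 lower. The 7 of the ER became 3 without SPI replicate 1, SPI replicate 3 or WPH replicate 2. Without each array in turn, 3 of the 7 higher and 5 of the 7 lower probe sets remained called every time.

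**Figure D5:**
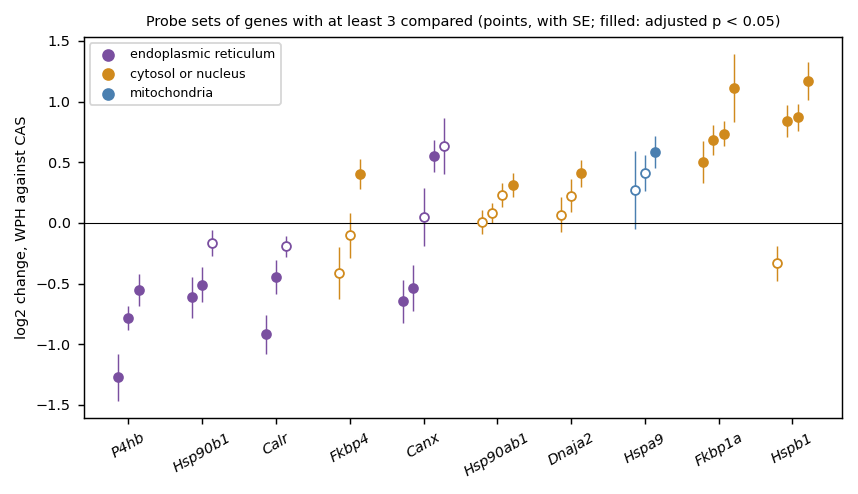
Log2 change of WPH against CAS (vertical axis, with the SE) for each probe set (points) of the 10 genes with at least 3 compared, coloured by compartment, filled where the adjusted p was under 0.05. The 4 probe sets of Fkbp1a and the 3 of P4hb lie on one side of 0, whereas those of Canx run from -0.65 to 0.63.

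Probe sets of the same gene served as a check on each reading. Of 22 genes with more than 1 compared probe set, all probe sets pointed one way in 16 for WPH against CAS, in 13 for SPI against CAS and in 17 for SPI against WPH. Canx was the only gene called in both directions, in the first of these. Where the probe sets of a gene lie in its transcript is not given in the sources used here.

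Genes of the same pathways with other symbols were examined too. Of 12 compared genes of the cytosolic heat shock response and its co-chaperones, 5 were higher and 0 lower with WPH, where 20.9% and 17.9% of all compared probe sets were. Cryab (αB-crystallin, a small heat shock protein of muscle and lens) rose by 0.95 ± 0.11 (adjusted p = 4.48e-05), from a mean signal of 1106 with CAS and 1534 with SPI to 2139.8 with WPH. The prefoldin subunit Pfdn2 rose by 0.74 ± 0.16, the Hsp70 and Hsp90 linker Stip1 by 0.63 ± 0.15, the kinase co-chaperone Cdc37 by 0.41 ± 0.11 and the heat shock factor Hsf1 by 0.32 ± 0.11 (adjusted p = 0.00341, 0.00551, 0.0106 and 0.0339). With SPI 4 of the 12 were higher and 0 lower (12.0 and 10.2% of all), and SPI against WPH had 1 of each (10.1 and 9.83%).

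Of 21 compared genes of ER folding and the unfolded protein response, 1 was higher and 4 lower with WPH, 1 and 3 with SPI, and against WPH the SPI arrays had 3 higher and 2 lower. The shares called over all compared probe sets were those given above, and 4 of 21 is near the 17.9% lower with WPH. Eif2ak3 (PERK), a sensor kinase of the unfolded protein response, fell by 1.61 ± 0.23 with WPH (adjusted p = 0.000173), and the stress-induced factor Atf3 by 1.24 ± 0.13 (adjusted p = 1.65e-05). Rpn1 and Rpn2, subunits of the N-glycosylation complex, fell by 0.49 ± 0.12 and 0.41 ± 0.11 (adjusted p = 0.0065 and 0.0132). The gene that rose, Serpinh1 (Hsp47), is an ER chaperone made for collagen, and it rose by 1.31 ± 0.088 (adjusted p = 7.45e-07). The median change of the 21 genes was -0.083, beside 0.060 over all compared probe sets. Of 9 compared genes of mitochondrial folding and proteolysis, 0 were called in limma in any of the comparisons, and at an unadjusted p under 0.05 there was 1, higher with SPI than with WPH.

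The remaining 10 probe sets stayed under a mean of 100 with every diet and were not compared. They left 5 genes with no reading: Dnajc17, Fkbp1b (FKBP12.6), Hspa1l (an Hsp70 of testis), Ppig and Dnajb14. The other dim probe sets belonged to Dnajc5, Hsph1 and Hspa5, which were compared on brighter ones.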

How the data were processed

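Biotin-labelled cRNA targets were hybridized for 16 hours to RG_U34A GeneChips. The deposited values were linear MAS 5.0 signals, brought by the authors to a mean of 500 per array. Detection calls and probe-level data were not used here, so a signal under 100 stood for a dim probe set. Wash rounds were inferred from the hybridization clock times in the array settings, joined where at most 10 minutes apart. Signals were floored at 0.1, taken to log2 and fitted with limma (version 3.58.1, R 4.3.3, lmFit and eBayes with a variance trend) over all 9 arrays, with no covariate. Benjamini-Hochberg adjustment ran over the 5606 probe sets with a mean of at least 100 in at least 1 diet. The code of the fit was run on simulated signals with known changes and independent noise. These held no effect of wash round or pool, so they cannot show how either acts on the calls. Python 3.11.15, numpy 2.4.6, pandas 2.3.3 and matplotlib 3.10.9 were used for counts and plots.

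A probe set was called at an adjusted p under 0.05. Fold values are ratios of mean signals, and a diet with all 3 arrays under 100 was raised to 100 to give a bound. The brightest compared probe set stood for a gene. Core chaperones with a probe set of their own and, in each comparison, the 10 called members with the lowest adjusted p were given in full. Other members, and Hspa8, Ppia and Hsp90aa1 on probe sets of several symbols, were given in short. Symbols came from the platform annotation, where 7006 probe sets had 1 symbol, and 14 probe sets with several symbols and a matching one were kept apart. Members, compartments and lists were chosen with earlier results of these data known, so list counts have no test. Each fit was repeated without any 1 array, with a block for wash round or for replicate number, on the compared diets alone, without the variance trend, after median centring or quantile normalization, with a floor of 50, on log2(signal + 32), with the filter at 200 and with no filter. Calls were also made with a 2-fold limit, over 1 probe set per gene and by the methods' t-test on linear signals, with Benjamini-Hochberg adjustment. The paper used its t-test together with SAM and pairwise change calls, which were not run here, so these counts do not reproduce its method. Comparisons within a wash round were added after seeing the data. Because replicates are targets of 1 pool per diet, the 3 arrays of a diet give no measure of the spread between rats. They measure the spread of labelling and hybridization only.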

Additional observations from a re-analysis of the deposited data

How the results depend on the processing

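For chaperones named in full, no change called here or under an alternative turned direction, but values that were not called could change sign, as that of Ppib for WPH did with the wash round as a block (0.15). Calls were lost in 116 of the 1919 combinations of probe set, comparison and alternative, and gained in 17. The 1919 include combinations that were not called here and so had no call to lose. With the wash round as a block, 23 of the calls were lost and 24 kept. With the methods' t-test, 19 were lost and 28 kept. The wash round as a block moved the counts of called members to 9 lower for WPH against CAS, 1 higher and 1 lower for SPI against CAS, and 1 higher and 3 lower for SPI against WPH. The ER median for SPI against CAS was then 0.035. Within the second wash round SPI against WPH had 1 higher and 0 lower, and 7 lower at an unadjusted p under 0.05. The methods' t-test alone, with adjusted p, gave 13 higher and 11 lower for WPH, 5 and 2 for SPI, and 0 and 2 for SPI against WPH. In that last comparison its unadjusted p was under 0.05 for 7 and 17 (11 and 16 in limma). Counting 1 probe set per gene gave 13 higher and 8 lower for WPH, 6 higher for SPI, and 3 higher and 4 lower for SPI against WPH. A limit of 2-fold left 6 and 2, 1 and 2, and 0 and 0. With no variance trend SPI had 7 higher, and with no filter SPI against WPH had 4 higher. For WPH the cytosolic median was 0.48 with log2 of the signal plus 32 and 0.46 over all probe sets, the ER median was -0.34 with the filter at 200 and -0.33 over all probe sets, and the mitochondrial one was 0.088 over all probe sets. For SPI the cytosolic median was 0.17 over all probe sets.

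Leaving out each array in turn gave 19 to 23 higher and 12 to 17 lower for WPH, 7 to 12 and 2 to 5 for SPI, and 3 to 8 and 5 to 10 for SPI against WPH. The WPH medians were 0.45 to 0.67 for the cytosol and -0.29 to -0.17 for the ER. The mitochondrial medians ran from -0.13 to -0.010 for SPI and from -0.12 (without WPH replicate 3) to 0.095 for SPI against WPH. Same-numbered arrays did not deviate together (r from -0.27 to 0.24), so replicate numbers were not taken as pairs. With the replicate number as a block the counts were 21 higher and 15 lower for WPH, 8 and 3 for SPI, and 5 and 7 for SPI against WPH. An alternative without members that are not chaperones was not run, since none of the members fell outside. The causes of these shifts were not tested.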
